A study of Homo sapiens with 24 samples.

Results

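CREB3, CREB3L1 and ATF6B encode transcription factors with a basic leucine zipper (bZIP) that are made as membrane-bound precursors. They were taken as the 3 probes of those names among the 189 endogenous genes of an nCounter cell cycle panel, an assay that counts mRNA molecules by hybridised barcodes. All 3 were counted in all 24 libraries. The study asked which cell cycle genes respond when long noncoding RNAs from 8q24.21, named CARLos, are knocked down. HCT116 cells, a line from a colorectal cancer, were transfected with 50 nM of an siRNA named siCARLo-3, siCARLo-1 v3, siCARLo-5, siCARLo-7 v2 or siCARLo-4, or of a control siRNA (siCTRL). PC3 cells, a line from a prostate cancer, were transfected with 100 nM of siCARLo-1 v2&4 or 100 nM of siCTRL. Each of the 8 groups had 3 libraries, and every control library was from transfected cells. The targeted CARLo transcripts were not analysed here, so the depth of each knockdown is not shown.

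Proteins of this class span the membrane of the endoplasmic reticulum, where secreted proteins fold. Under stress they travel to the Golgi apparatus, where proteases cut them inside the membrane, and the released bZIP fragment enters the nucleus and binds DNA. CREB3 (also called Luman) is known for Golgi stress and secretory transport. CREB3L1 (also called OASIS) drives genes of collagen secretion and can block the cell cycle, in part through the cell cycle inhibitor CDKN1A. ATF6B is the close relative of the unfolded protein response factor ATF6 and is the weaker activator of that pair. The counts measure the mRNA, and neither the cleavage nor the nuclear fragment was measured.

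In RefSeq the 3 genes lie on different chromosomes, CREB3 on chromosome 9, CREB3L1 on chromosome 11 and ATF6B on chromosome 6. All 3 matched the RefSeq table of promoter windows, which hold 250 bases before and 50 after each gene's start, and the windows are shown to set the start regions of genes with different responses side by side. The build of the table is GRCh38.p14. The windows are chr9:35732416-35732715 on the plus strand for CREB3, chr11:46294909-46295208 on the plus strand for CREB3L1 and chr6:32128197-32128496 on the minus strand for ATF6B, each written 5′ to 3′ along its gene. Capitals mark TGACG, part of the cAMP response element, ACGTG, a core shared by several bZIP and E-box sites, and CCAAT, each on either strand.
CREB3: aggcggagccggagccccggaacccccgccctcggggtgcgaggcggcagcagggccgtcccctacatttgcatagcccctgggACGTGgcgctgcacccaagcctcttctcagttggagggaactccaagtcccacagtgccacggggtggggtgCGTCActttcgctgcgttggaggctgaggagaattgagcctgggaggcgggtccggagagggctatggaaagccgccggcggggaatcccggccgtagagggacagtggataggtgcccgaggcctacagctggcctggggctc
CREB3L1: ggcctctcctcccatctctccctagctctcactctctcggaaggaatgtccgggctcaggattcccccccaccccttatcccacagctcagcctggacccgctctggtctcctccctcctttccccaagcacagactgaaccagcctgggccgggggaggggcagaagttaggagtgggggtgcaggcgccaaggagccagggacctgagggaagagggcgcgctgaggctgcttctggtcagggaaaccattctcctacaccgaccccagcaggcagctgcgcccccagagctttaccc
ATF6B: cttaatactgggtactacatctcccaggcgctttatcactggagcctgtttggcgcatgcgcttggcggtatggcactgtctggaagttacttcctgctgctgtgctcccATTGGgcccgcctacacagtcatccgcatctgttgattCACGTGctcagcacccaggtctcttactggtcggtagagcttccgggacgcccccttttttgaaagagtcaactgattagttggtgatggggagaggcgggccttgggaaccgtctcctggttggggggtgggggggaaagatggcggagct
The CREB3 window held 1 TGACG, on the opposite strand, and 1 ACGTG. The ATF6B window held 1 CCAAT, on the opposite strand, and a CACGTG palindrome that matches ACGTG on both strands. The CREB3L1 window held none of these letters. Of 35116 RefSeq promoter windows of the same length, 24.6% held TGACG, 21.4% held ACGTG and 34.6% held CCAAT. The full cAMP response element TGACGTCA (1.85% of windows) and the endoplasmic reticulum stress response element (0.0769% of windows), searched on both strands, were in none of the 3. A match is a description of the letters and shows no binding.

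Raw endogenous totals ran from 55893 to 236508 counts per library in the 7 groups deposited as counts, and the siCARLo-3 libraries, with 55893 to 92559, held the lowest of them. The PC3 siCARLo-1 v2&4 libraries were deposited as values already scaled by the positive controls, so their depth is not known. Levels are given as counts per 100000 panel counts after TMM scaling, a normalization that assumes most genes do not change, and background is the mean plus 2 SD of the 8 negative control probes. The positive control sums of the authors' series-wide table fall into 4 sets, and each siCARLo group lies in another set than its siCTRL group, so set and treatment cannot be told apart there. Among the listed markers of the lines, CDH1, an epithelial cadherin, was above background in all 24 libraries, and TWIST1, a mesenchymal factor, in 5 of 6 PC3 and 0 of 18 HCT116 libraries. HCT116 siCARLo-1 v3 replicate 3 stood apart from its 2 partners over the panel.

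**Figure D1:**
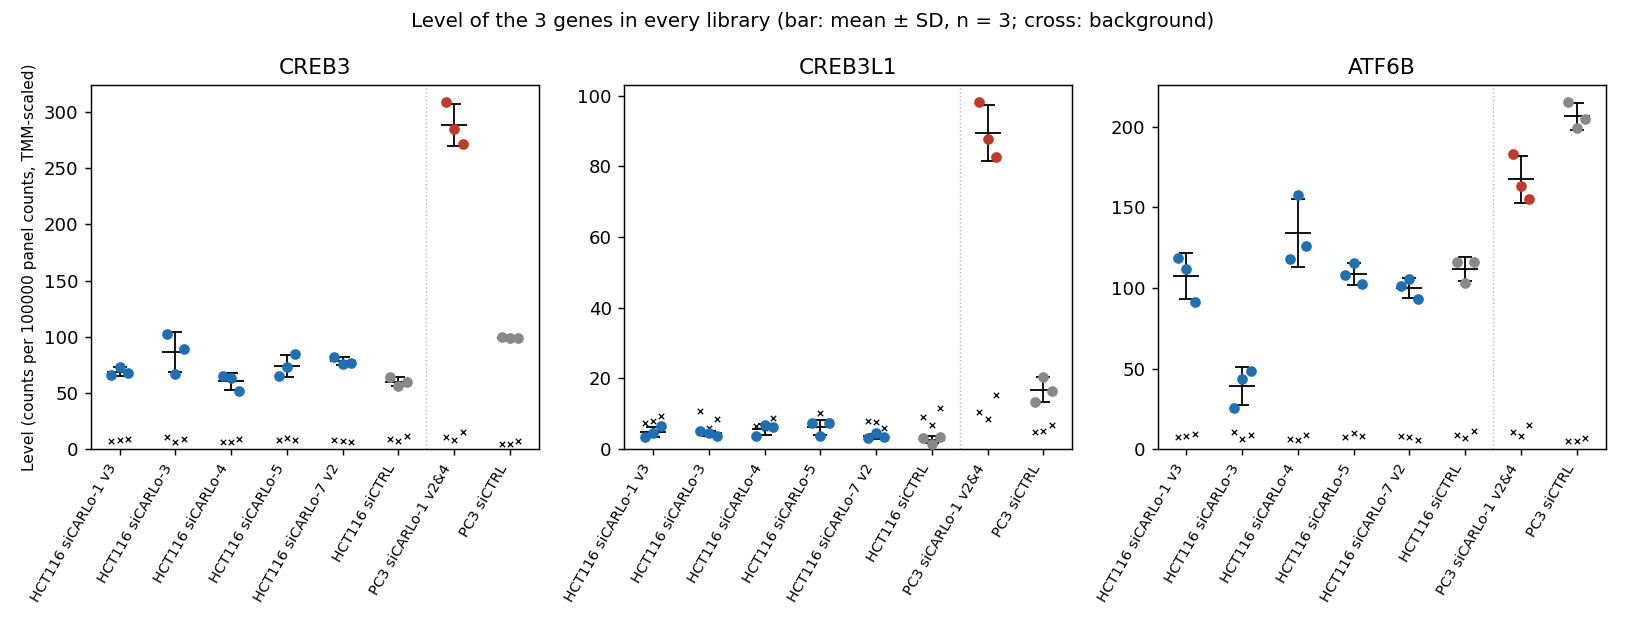
Level of CREB3, CREB3L1 and ATF6B (counts per 100000 panel counts, TMM-scaled) in each of 24 libraries, by group, with the mean and SD of 3 libraries (bars) and the background of each library (crosses). CREB3 and CREB3L1 were highest in PC3 siCARLo-1 v2&4, ATF6B was lowest in HCT116 siCARLo-3, and CREB3L1 was above background in 1 of 18 HCT116 libraries.

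CREB3 was above background in 24 of 24 libraries, with deposited values of 48 to 261. In HCT116 its mean level, from high to low, was 86.1 ± 17.8 with siCARLo-3, 78.2 ± 3.68 with siCARLo-7 v2, 74.1 ± 9.73 with siCARLo-5, 68.8 ± 3.89 with siCARLo-1 v3, 60.2 ± 7.22 with siCARLo-4 and 59.9 ± 4.12 with siCTRL (SD, n = 3 each). Neighbours in this order overlapped in their libraries, except siCARLo-1 v3 and siCARLo-4. In PC3 the level was 288 ± 18.8 with siCARLo-1 v2&4 and 99.2 ± 0.355 with siCTRL (SD, n = 3 each).

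ATF6B was also above background in 24 of 24 libraries, with deposited values of 15 to 495. Its mean level in HCT116 was 134 ± 21.1 with siCARLo-4, 109 ± 6.72 with siCARLo-5, 107 ± 14.2 with siCARLo-1 v3, 100.1 ± 6.23 with siCARLo-7 v2, 39.1 ± 12 with siCARLo-3 and 112 ± 7.47 with siCTRL (SD, n = 3 each). The highest siCARLo-3 library, at 48.3, lay below the lowest of the other 15 HCT116 libraries, at 91.4. The panel genes E2F1, PTPRA, POLR1D and GBA2 separated in the same way, and how many of all genes did was not counted. In PC3 it was 167 ± 14.4 with siCARLo-1 v2&4 and 206 ± 8.24 with siCTRL (SD, n = 3 each).

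CREB3L1 was close to the negative controls in HCT116, where its counts were 2 to 13 and 1 of 18 libraries, siCARLo-4 replicate 2, was above background. The background of the 18 libraries lay between 4.64 and 16.1 counts. In PC3 it was above background in 6 of 6 libraries, at 89.5 ± 7.93 with siCARLo-1 v2&4 and 16.8 ± 3.55 with siCTRL (SD, n = 3 each). Tests in HCT116 leave CREB3L1 out, since a gene had to be above background in at least 3 libraries of a fit.

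Against siCTRL, the largest HCT116 difference of the 2 members tested there was the fall of ATF6B with siCARLo-3. The level was 25.6, 43.5 and 48.3 in the siCARLo-3 libraries, against 116.1, 103.1 and 116.0 in the siCTRL libraries. All 3 siCARLo-3 libraries were therefore below all 3 control libraries, with no overlap, as the libraries of 62.4% of the 178 genes tested did not overlap either way. By edgeR's quasi-likelihood test over 178 genes in 18 libraries the log2 fold change was -1.50 ± 0.19 (SE, n = 3 each), a level 2.83-fold lower (95% interval -1.90 to -1.10 on the log2 scale, adjusted p = 3.33e-06), rank 3 from the lowest of 178 genes. The deposited counts behind it were 15, 37 and 26 with siCARLo-3 and 145, 133 and 105 with siCTRL. In bulk RNA, fewer cells that express a gene and less RNA per cell cannot be told apart.

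CREB3 moved the other way with siCARLo-3. Its level was 102.2, 67.0 and 89.2 in the siCARLo-3 libraries, against 64.1, 55.8 and 59.7 in the siCTRL libraries. The 3 siCARLo-3 libraries were higher without overlap, and replicate 2 lay closest to the controls. The log2 fold change was 0.50 ± 0.16 (SE, n = 3 each, edgeR, adjusted p = 0.0144), and it was -0.10 (adjusted p = 0.676) when libraries were scaled by the positive controls. The call was also lost with reference gene scaling (0.34, adjusted p = 0.136) and without siCARLo-3 replicate 1 (0.35, adjusted p = 0.1) or siCTRL replicate 2 (0.42, adjusted p = 0.0654). Both members tested were thus called with siCARLo-3, where the background was 52.2% of 178 genes called, 27% called lower and 25.3% called higher.

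The comparisons of siCARLo-3 with siCARLo-1 v3 and siCARLo-4 stay within 1 set of positive control sums. ATF6B was 1.44 ± 0.19 lower on the log2 scale with siCARLo-3 than with siCARLo-1 v3 (log2 fold change -1.44, adjusted p = 6.08e-06, edgeR), where its siCARLo-1 v3 levels were 118.4, 112.1 and 91.4. It was lower again than with siCARLo-4 (log2 fold change -1.77 ± 0.18, adjusted p = 1.81e-07, edgeR), where its levels were 117.9, 157.8 and 126.2. In these comparisons 55.1% and 43.8% of genes were called, and ATF6B ranked 3 and 2 from the lowest of 178. CREB3 was 0.30 ± 0.16 higher with siCARLo-3 than with siCARLo-1 v3 (adjusted p = 0.115, edgeR). This difference was called only when siCARLo-3 replicate 2 was left out (0.49, adjusted p = 0.0185), and it ran from -0.13 to 0.31 over other settings. CREB3 was 0.49 ± 0.15 higher with siCARLo-3 than with siCARLo-4 (adjusted p = 0.0135, edgeR). The call against siCARLo-4 did not hold when positive controls set the scale (0.06, adjusted p = 0.784), nor without siCARLo-3 replicate 1 (0.35, adjusted p = 0.105), nor with siCARLo-4 replicate 3 left out (0.40, adjusted p = 0.0632). In the direct comparison of siCARLo-4 with siCARLo-1 v3 neither gene was called, with ATF6B at 0.33 (95% interval 0.04 to 0.62, adjusted p = 0.0575) and CREB3 at -0.19 (-0.49 to 0.11, adjusted p = 0.287), while 45.5% of genes were. The ATF6B difference passed the threshold once replicate 1 of siCARLo-1 v3 was left out (0.42, adjusted p = 0.0426), and likewise replicate 1 of siCARLo-4 (0.41, adjusted p = 0.0352).

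The other 4 siCARLo groups showed small differences from siCTRL. ATF6B was called in none of them: its log2 fold change was -0.06 with siCARLo-1 v3 (95% interval -0.36 to 0.25), 0.27 with siCARLo-4 (-0.01 to 0.56), -0.04 with siCARLo-5 (-0.33 to 0.26) and -0.16 with siCARLo-7 v2 (-0.46 to 0.15). At an unadjusted p under 0.05 it was called in 0 of the 4, with unadjusted p of 0.704, 0.0609, 0.799 and 0.296 by edgeR. DESeq2 called 0 of the 4 as well. In the fit of only the libraries compared, siCARLo-4 was called (0.28, adjusted p = 0.0499, edgeR). In the authors' series-wide values siCARLo-7 v2 turned positive and was called (0.61, adjusted p = 0.0138, limma). Those values hold positive control sums of 8964 to 8967 with siCTRL and 16033 with siCARLo-7 v2, which shifts this comparison upward by construction. The F test among the 5 siCARLo groups gave ATF6B F = 24.3 (adjusted p = 2.75e-06, edgeR), beside 86.5% of 178 genes called.

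CREB3 was higher with siCARLo-7 v2, at 82.4, 75.4 and 76.8 in its 3 libraries, against 64.1, 55.8 and 59.7 in siCTRL libraries. The libraries did not overlap, as for 57.3% of genes, and the log2 fold change was 0.39 ± 0.15 (SE, n = 3 each, edgeR, adjusted p = 0.0456). This call stood at the threshold: leaving out any 1 of the 6 libraries took the adjusted p to between 0.0627 and 0.153, and with the replicate block it was 0.0593. CREB3 was not called with siCARLo-5 (0.32 ± 0.14, adjusted p = 0.0735, edgeR), siCARLo-1 v3 (0.19 ± 0.15, adjusted p = 0.317) or siCARLo-4 (0.00 ± 0.15, 95% interval -0.30 to 0.31, adjusted p = 0.981). Without siCARLo-5 replicate 1 the siCARLo-5 difference was 0.39 (adjusted p = 0.0397), and it ran from -0.09 to 0.71 over other settings. The background was 41% of 178 genes called with siCARLo-1 v3, 35.4% with siCARLo-4, 55.1% with siCARLo-5 and 37.1% with siCARLo-7 v2. Between siCARLo-7 v2 and siCARLo-5 neither gene was called, with CREB3 at 0.07 (-0.22 to 0.36, adjusted p = 0.652) and ATF6B at -0.12 (-0.42 to 0.18, adjusted p = 0.475), beside 52.2% of genes. The F test among the 5 groups gave CREB3 F = 3.32 (adjusted p = 0.0400, edgeR), a call lost with reference gene scaling (F = 2.13, adjusted p = 0.125), with the replicate block (F = 3.05, adjusted p = 0.0577) and without any of 8 single libraries (lowest F = 1.97, without siCARLo-4 replicate 3, adjusted p = 0.159).

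CREB3L1 gave no usable level in HCT116. In siCARLo-1 v3 libraries its counts were 5, 4 and 8, in siCARLo-3 libraries 3, 4 and 2, in siCARLo-4 libraries 5, 13 and 11, in siCARLo-5 libraries 9, 6 and 12, in siCARLo-7 v2 libraries 4, 5 and 4 and in siCTRL libraries 4, 2 and 3. With no filter on low counts the log2 fold change over siCTRL was called with siCARLo-5 (1.2, adjusted p = 0.0371, edgeR) and not with siCARLo-4 (1.12, adjusted p = 0.0672), but 0 of the 3 siCARLo-5 libraries were above background.

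**Figure D2:**
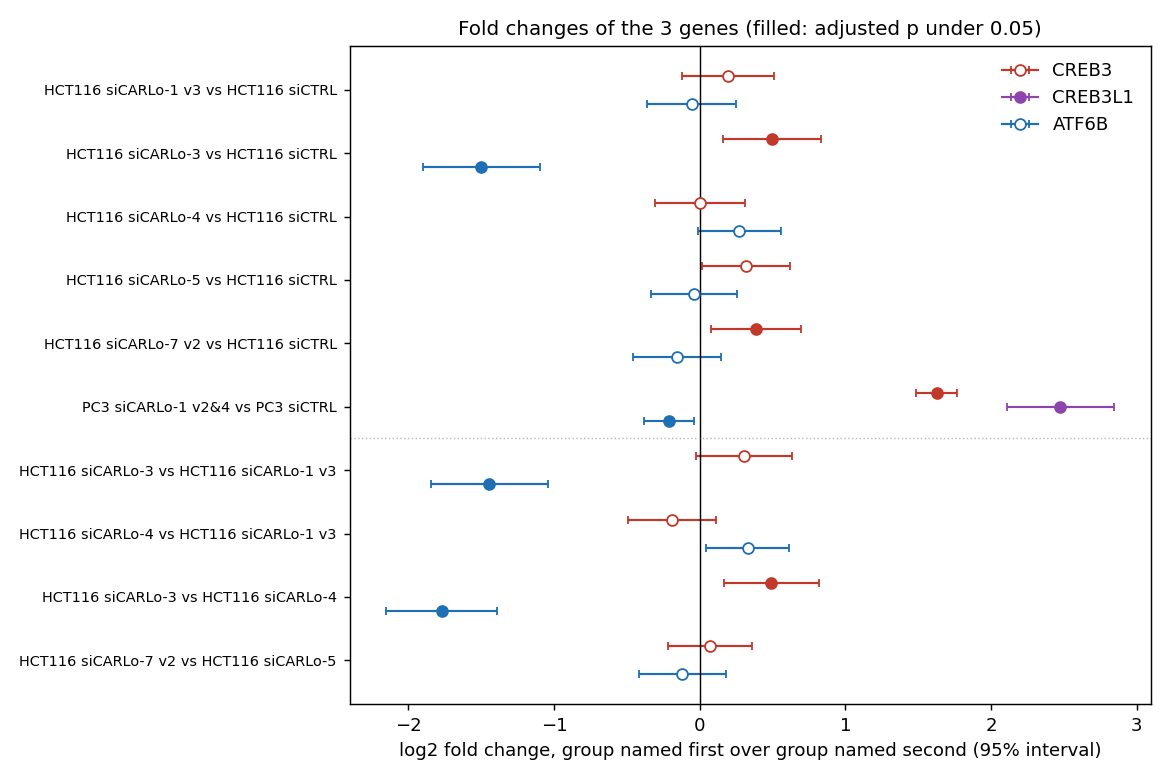
Log2 fold change of CREB3, CREB3L1 and ATF6B in 10 comparisons of 2 groups, first-named over second-named, with the 95% interval. ATF6B lies at -1.50 for siCARLo-3 over siCTRL in HCT116, CREB3 at 1.63 and CREB3L1 at 2.48 for siCARLo-1 v2&4 over siCTRL in PC3, and CREB3L1 is shown for PC3 alone because it was not tested in HCT116.

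In PC3 CREB3L1 and CREB3 were higher with siCARLo-1 v2&4, while the sign of the ATF6B change depended on the scaling. CREB3L1 had the larger rise: its level was 98.2, 87.7 and 82.7 in siCARLo-1 v2&4 libraries, against 13.5, 20.5 and 16.4 in siCTRL libraries. The groups did not overlap, as for 78.8% of genes. By limma on log2(scaled value + 1) over 179 genes the log2 fold change was 2.48 ± 0.15 (SE, n = 3 each), a level 5.56-fold higher (95% interval 2.11 to 2.84, adjusted p = 1.59e-05), rank 3 from the highest of 179 genes. Its deposited values, 83, 73 and 66 with siCARLo-1 v2&4, were above a background of at most 15.7 in PC3.

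CREB3 followed it in PC3. The level was 308.8, 284.9 and 271.7 in siCARLo-1 v2&4 libraries, against 99.6, 99.0 and 99.0 in siCTRL libraries, again with no overlap. The log2 fold change was 1.63 ± 0.06 (SE, n = 3 each, limma, 95% interval 1.49 to 1.77, adjusted p = 1.64e-06), a level 3.09-fold higher and rank 5 from the highest of 179 genes. ATF6B was at 183.4, 163.5 and 155.3 in siCARLo-1 v2&4 libraries, against 215.4, 199.3 and 204.7 in siCTRL libraries. The groups did not overlap and the log2 fold change was -0.21 ± 0.07 (SE, n = 3 each, limma, adjusted p = 0.0349). With reference gene scaling the ATF6B value was 0.04 (adjusted p = 0.646), and without siCARLo-1 v2&4 replicate 2 (-0.20, adjusted p = 0.0813) or replicate 3 (-0.16, adjusted p = 0.0876) the call was lost. All 3 members were called in PC3, beside 76% of 179 genes, 40.2% higher and 35.8% lower.

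The size of the PC3 changes depended on the scaling. Endogenous counts per positive control count were 5.96 ± 0.329 with siCARLo-1 v2&4 and 10.4 ± 0.939 with siCTRL (SD, n = 3 each). Scaling by the positive controls shifted the median of all genes to -0.77, from 0.08 under TMM, and called 11 genes higher and 131 lower, against 72 and 64 under TMM and 92 and 43 with reference genes. CREB3L1 stayed higher, at 1.63, and CREB3 stayed higher, at 0.76, while ATF6B lay at -1.07. In the authors' series-wide values, where the 2 PC3 groups lie in different sets, the changes were 1.34 for CREB3L1, 0.47 for CREB3 and -1.37 for ATF6B. For siCARLo-3 in HCT116, where endogenous counts per positive control count were 7.54 ± 0.823 with siCARLo-3 and 10.8 ± 0.998 with siCTRL (SD, n = 3 each), ATF6B was at -1.66 with reference genes and -2.14 with positive controls. There the split of calls was 45 higher and 48 lower under TMM, 11 and 118 with positive controls and 27 and 59 with reference genes.

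**Figure D3:**
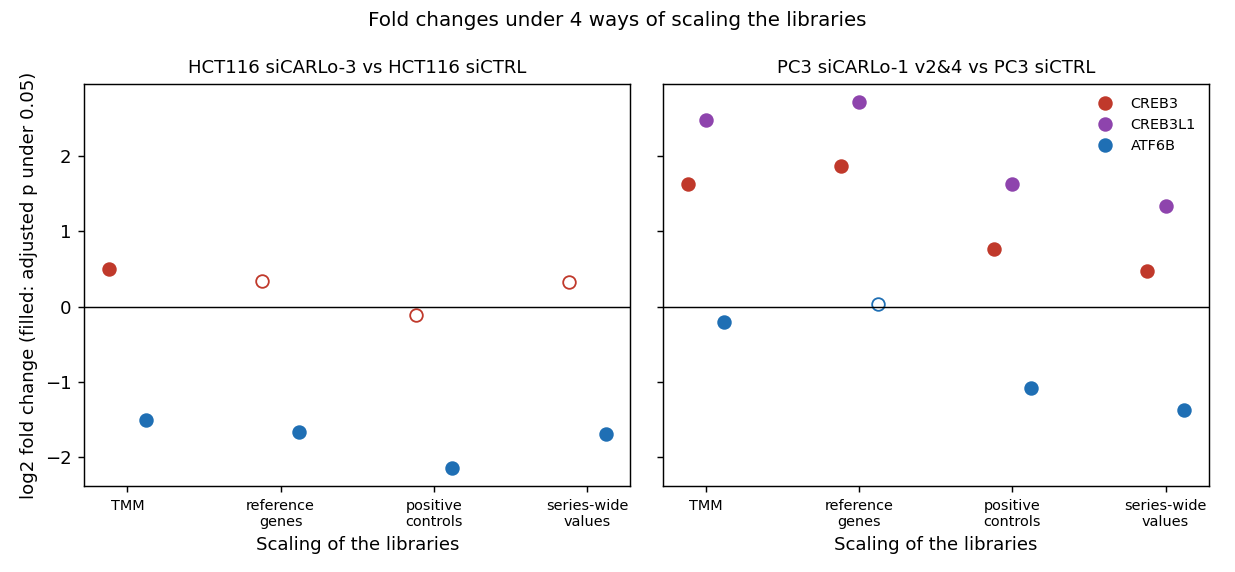
Log2 fold change of the members for siCARLo-3 over siCTRL in HCT116 and siCARLo-1 v2&4 over siCTRL in PC3, under 4 ways of scaling the libraries on the horizontal axis. CREB3L1 and CREB3 stay above 0 in PC3 under all 4 and ATF6B stays between -2.14 and -1.50 for siCARLo-3, while CREB3 for siCARLo-3 and ATF6B in PC3 change sign.

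The ratio of CREB3 to ATF6B within a library needs no scaling between libraries, and only its change can be read, since the probes may differ in efficiency. With siCARLo-3 in HCT116 the ratio was 4, 1.54 and 1.85, against 0.552, 0.541 and 0.514 with siCTRL. With siCARLo-1 v2&4 in PC3 it was 1.68, 1.74 and 1.75, against 0.463, 0.497 and 0.484 with siCTRL. All 3 knockdown libraries of each line lay above all 3 of its control libraries, a 4.20-fold difference in HCT116 (log2 difference 2.07) and a 3.59-fold difference in PC3 (1.84). An exact two-sided permutation test gave p = 0.1 in both, the smallest that 3 against 3 libraries allow (adjusted p = 0.125 over the 10 comparisons of 2 groups). The libraries did not overlap in 8 of the 10 comparisons, each with the same p, and the exceptions were siCARLo-4 over siCTRL and siCARLo-7 v2 over siCARLo-5. Single genes did not overlap in 62.4% of cases for siCARLo-3 over siCTRL and in 78.8% for PC3. Ratios of other gene pairs were not examined, so the count has no share beside it. The siCARLo-3 ratio of 4 rested on an ATF6B count of 15, in a library with a background of 6.38 counts. In the other HCT116 groups the ratio was between 0.556 and 0.737 with siCARLo-1 v3, 0.401 and 0.555 with siCARLo-4, 0.603 and 0.825 with siCARLo-5 and 0.714 and 0.823 with siCARLo-7 v2. Relative to siCTRL it was 1.2-fold with siCARLo-1 v3, 1.27-fold with siCARLo-5 and 1.46-fold with siCARLo-7 v2. With siCARLo-4 it went the other way, at 0.84-fold, and overlapped siCTRL. A ratio shows that the genes changed unequally, not that either kept its level.

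**Figure D4:**
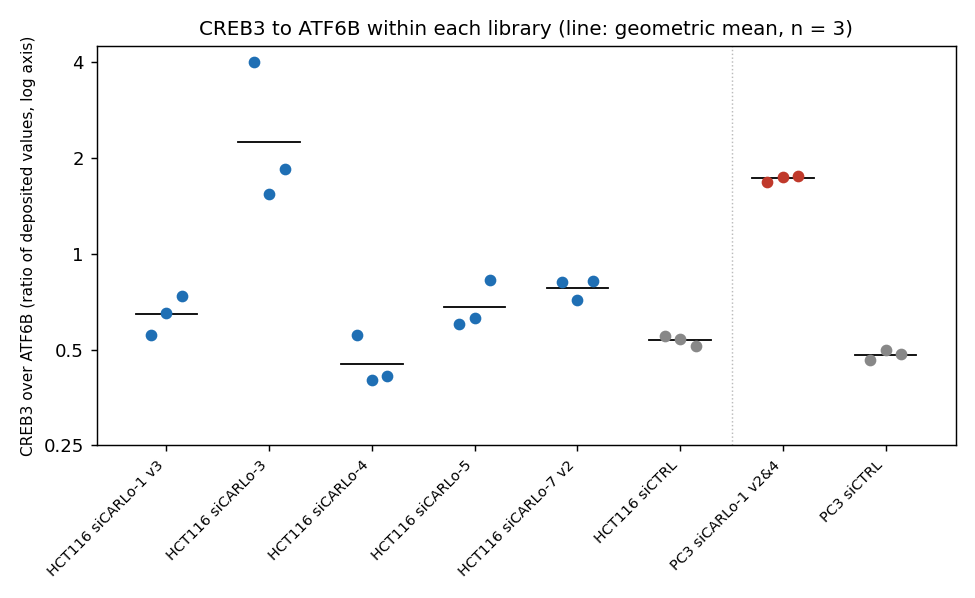
Ratio of the deposited value of CREB3 to that of ATF6B in each library (log axis), by group, with the geometric mean of 3 libraries (line). The libraries of HCT116 siCARLo-3 (1.54 to 4) and PC3 siCARLo-1 v2&4 (1.68 to 1.75) lie above those of the siCTRL group of their line (0.514 to 0.552 in HCT116, 0.463 to 0.497 in PC3).

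The lines also differed before knockdown. In siCTRL libraries CREB3 was higher in PC3 than in HCT116, at 99.6, 99.0 and 99.0 against 64.1, 55.8 and 59.7 (log2 fold change 0.72 ± 0.12, limma over 184 genes, adjusted p = 4.94e-05). ATF6B was higher as well, at 215.4, 199.3 and 204.7 against 116.1, 103.1 and 116.0 (log2 fold change 0.88 ± 0.17, limma, adjusted p = 1.39e-04). CREB3L1, at 13.5, 20.5 and 16.4 in PC3, was at least 1.83-fold higher than the background of the HCT116 control libraries, given as a bound with no test because 0 of those 3 libraries were above background. In this comparison 68.5% of 184 genes were called. The lines also differed in the siRNA dose, and their control libraries lay in different sets of positive control sums.

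The change with siCARLo-1 v2&4 in PC3 was set against that with siCARLo-1 v3 in HCT116, and line, siRNA and dose differ together between them. The change of CREB3 was 1.33 ± 0.18 larger in PC3 (log2 difference of effects, limma, adjusted p = 4.14e-06), and 0.75 larger with positive control scaling (adjusted p = 0.0190). That of ATF6B differed by -0.24 (95% interval -0.73 to 0.26, limma, adjusted p = 0.431), beside 55.4% of 184 genes called. With positive control scaling the ATF6B difference was -0.82 and was called (limma, adjusted p = 0.0190). In the authors' series-wide values, which hold a different positive control total in each set, the differences were 0.01 (adjusted p = 0.970) for CREB3 and -1.56 (adjusted p = 3.65e-05) for ATF6B. No difference is read for CREB3L1, whose libraries were all at background in both HCT116 groups.

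Genes of the surrounding pathway were sparse on the panel. Of the 19 listed genes of the unfolded protein response and endoplasmic reticulum stress, 2 were present, CREB3L3, a liver and gut member of the family, and CREB3L4, a prostate member. Neither was called against siCTRL in HCT116, nor CREB3L4 in PC3, and 0 of these 11 tests had an unadjusted p under 0.05: with siCARLo-3 CREB3L4 was at -0.29 (adjusted p = 0.506, edgeR) and in PC3 at -0.12 (adjusted p = 0.750, limma). In both comparisons CREB3L4 was called lower with positive control scaling (-0.92, adjusted p = 0.0135, and -0.92, adjusted p = 0.00412) and in the series-wide values (-0.58, adjusted p = 0.0196, with siCARLo-3 and -1.16, adjusted p = 6.48e-04, in PC3). CREB3L3 was not tested in PC3, where too few libraries were above background; with no filter it was at 0.50 (adjusted p = 0.0195, limma).

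Of the 10 genes listed around the CREB3 family, 5 were present: CDKN1A, the transforming growth factor β signal transducer SMAD4 and the ligands TGFB1, TGFB2 and TGFB3. Whether any of the 5 is a partner or a target of the family in these cells was not tested. With siCARLo-3 in HCT116, 3 of 5 were higher and 0 lower (median log2 fold change 0.95, against 0.00 over all 178 genes, of which 25.3% were called higher and 27% lower), namely CDKN1A (2.51, adjusted p = 5.45e-15, edgeR), TGFB1 (0.95, adjusted p = 8.42e-04) and TGFB2 (1.19, adjusted p = 0.00163). SMAD4 was at 0.00 (adjusted p = 0.986). TGFB3, at -1.01 (adjusted p = 0.0564), was called lower in 6 alternatives, among them limma (-1.19, adjusted p = 0.0159) and reference gene scaling (-1.17, adjusted p = 0.0224). In PC3 4 of 5 were higher and 0 lower (median 0.63, against 0.08 over all 179 genes, of which 40.2% were called higher and 35.8% lower): CDKN1A (2.60, adjusted p = 1.04e-06, limma), SMAD4 (0.66, adjusted p = 2.11e-04), TGFB1 (0.55, adjusted p = 0.00466) and TGFB2 (0.63, adjusted p = 8.01e-04), with TGFB3 at 0.12 (adjusted p = 0.219). With positive control scaling the counts were 1 higher and 2 lower with siCARLo-3 and 1 higher and 1 lower in PC3, where CDKN1A was the gene still higher in both. With reference genes they were 3 higher and 1 lower with siCARLo-3 and 5 higher and 0 lower in PC3. In the series-wide values they were 3 higher and 1 lower with siCARLo-3 and 1 higher and 4 lower in PC3, where the median was -0.54. In the remaining comparisons with siCTRL the counts higher and lower were 1 and 1 with siCARLo-1 v3, 1 and 1 with siCARLo-4, 2 and 1 with siCARLo-5 and 1 and 1 with siCARLo-7 v2, beside 41%, 35.4%, 55.1% and 37.1% of all genes called, in that order.

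Over the 18 HCT116 libraries the genes whose log2 level was most like that of ATF6B were E2F1 (Pearson r = 0.93), PTPRA (r = 0.90) and POLR1D (r = 0.89). The siCARLo-3 libraries set much of this likeness: over the other 15 libraries r was 0.57, 0.81 and 0.26. For CREB3 the most similar were YWHAB (r = 0.69), GADD45B (r = 0.69) and ANAPC1 (r = 0.64), and over the other 15 libraries r was 0.67, 0.72 and 0.44. CREB3 and ATF6B themselves had r = -0.64 over 18 libraries and -0.45 over those 15. The median r over the 177 genes compared was 0.02 for ATF6B and -0.03 for CREB3. These are descriptions of libraries that share groups and scaling.

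The end of CREB3 overlaps the gene GBA2 by 134 bases in RefSeq, and no source used here gives the probe positions. Whether the CREB3 probe lies in the overlap is therefore not known, and whether it counts any GBA2 RNA was not tested. GBA2, a glucosylceramidase that was added after its values were seen, was lower with siCARLo-3 (-0.91 ± 0.15, adjusted p = 5.44e-05, edgeR) where CREB3 was higher. In PC3 GBA2 was at 0.63 ± 0.08 (adjusted p = 4.37e-04, limma), and at -0.23 (adjusted p = 0.103) with positive control scaling. No panel gene overlaps CREB3L1 or ATF6B in that table.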

How the data were processed

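Total RNA from siRNA-transfected HCT116 and PC3 cells was counted on an nCounter cell cycle code set, per the labels. In 7 of the 8 groups the deposited tables hold raw molecule counts; no source used here gives the authors' earlier steps. The table the authors deposited for PC3 cells with siCARLo-1 v2&4, and their series-wide table, hold a score, counts scaled by the positive controls and rounded, since positive control sums are equal within a set of libraries. The planned count test therefore could not be used for PC3.

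The 18 HCT116 libraries were fitted with edgeR 4.0.16 (R 4.3.3, quasi-likelihood, TMM over 189 genes, dispersion from all 6 groups). The 6 PC3 libraries, and all 24 for comparisons between lines, were fitted with limma 3.58.1 on log2(TMM-scaled value + 1). Genes above background (negative control mean plus 2 SD) in at least 3 libraries of a fit were tested: 178, 179 and 184. CREB3 and ATF6B passed in all fits, CREB3L1 in the last 2. P-values were adjusted over all genes tested (Benjamini-Hochberg, threshold 0.05), intervals are 95%, and the ratio used an exact permutation test. On simulated data with 40 genes changed by 1 on the log2 scale, edgeR (siCARLo-3 against siCTRL, 178 genes) recovered 100% with 1 false call and limma (PC3, 179 genes) 85% with 2. Recovery was not tested with as many genes changed as were called here, 93 of 178 with siCARLo-3 and 136 of 179 in PC3. Alternatives were DESeq2 1.42.0, other scalings, filters, pseudocounts, the replicate block and leaving out libraries. Libraries HCT116 siCTRL 1 and 2 differed by slightly more than sampling noise (chi-square per degree of freedom 1.18, p = 0.0495), were kept apart, and were averaged as an alternative.

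Whether the replicates came from separate cultures is not in the labels, so the p-values cover only spread among these libraries, possibly technical. Correlations between the deviations of same-numbered libraries ran from -0.271 to 0.395 over the 10 comparisons. For HCT116 siCARLo-3 against siCTRL they were 0.355, 0.243 and 0.289, and there the replicate block gave -1.51 for ATF6B and 0.50 for CREB3 (edgeR), both still called. For siCARLo-5 against siCTRL they were 0.372, 0.395 and 0.0888, and for siCARLo-4 against siCTRL 0.0432, 0.169 and 0.256. The main tests did not take the numbers as pairs, and the replicate block was run as an alternative. The members and gene lists were chosen with earlier results of these data known. Text names the 3 members and the panel genes listed for the unfolded protein response and around the CREB3 family. It also names the 3 genes with the highest r to each member, and GBA2 was added later. Promoter windows are RefSeq's.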

Additional observations from a re-analysis of the deposited data

Results flagged for a closer look

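For CREB3 the change with siCARLo-1 v2&4 in PC3 differed from the change with siCARLo-1 v3 in HCT116 by the test of the difference itself. The difference of the log2 changes was 1.33 (limma, adjusted p = 4.14e-06). CREB3 was called higher in PC3 (1.63, limma, adjusted p = 1.64e-06). It was not called with siCARLo-1 v3 in HCT116 (0.19, edgeR, adjusted p = 0.317). On the TMM scale the siCARLo-1 v3 libraries still lay above those of siCTRL (65.9 to 73.2 against 55.8 to 64.1). Under positive control scaling they overlapped. Without HCT116 siCARLo-1 v3 replicate 3, which stood apart from its partners, the difference of the log2 changes was 1.36 and still called. In the authors' series-wide values it was 0.00996 (adjusted p = 0.970). Line, siRNA and dose differ together, and their parts cannot be told apart. With 3 libraries a group, no test for a single outlying value was made.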

How the results depend on the processing

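The fall of ATF6B with siCARLo-3 ran from -2.14 to -1.47 over other settings and from -1.63 to -1.29 without 1 library, and kept its call, and CREB3 and CREB3L1 in PC3 kept theirs. CREB3 with siCARLo-3 was 0.34 with reference genes, -0.10 with positive controls, 0.33 in the series-wide values and 0.35 to 0.68 without 1 library. CREB3 with siCARLo-5 ran from -0.09 to 0.71 over other settings, was called at 0.71 in the series-wide values, and was 0.21 to 0.39 without 1 library. CREB3 with siCARLo-7 v2 lost its call with the first 2 controls averaged (0.38), DESeq2 size factors (0.35), DESeq2 (0.35), the replicate block (0.39), reference genes (0.46), positive controls (0.33) and without 1 library (0.33 to 0.44). CREB3 between siCARLo-3 and siCARLo-4 was 0.33, 0.0645 and 0.0765 with reference genes, positive controls and series-wide values, and 0.35 to 0.68 without 1 library. Between siCARLo-3 and siCARLo-1 v3 CREB3 ran from -0.13 to 0.31 over other settings and from 0.16 to 0.49 without 1 library. The F of CREB3 lost its call at 2.92 after subtracting negative controls, 2.74 in only the libraries compared, 3.05 with the replicate block, 2.13 with reference genes and 2.07 with positive controls, and was 1.97 to 5.57 without 1 library. ATF6B was 0.28 (called) with siCARLo-4 in only the libraries compared, 0.61 (turned and called) with siCARLo-7 v2 in the series-wide values, 0.0389 in PC3 with reference genes and -0.26 to -0.16 in PC3 without 1 library. Between siCARLo-4 and siCARLo-1 v3 it was 0.19 to 0.42. The difference of effects in the series-wide values was 0.00996 for CREB3, 0.54 for CREB3L1 (not read, at background in HCT116) and -1.56 (called) for ATF6B, which was -0.82 (called) with positive controls. With positive controls SMAD4 was -0.64 with siCARLo-3. In PC3, positive controls and series-wide values gave SMAD4 -0.20 and -0.50, TGFB1 -0.32 and -0.61, TGFB2 -0.24 and -0.54, TGFB3 -0.73 and -1.01, and GBA2 -0.23 and -0.53. Genes called in the series-wide values were 139 for siCARLo-7 v2 (66 in the counts), 49 between siCARLo-4 and siCARLo-1 v3 (81) and 158 for the difference of effects (102). The series-wide values carry another positive control total in each set, which shifts comparisons across sets by construction; for the other changes the cause was not tested. The replicate block changed no other call of a member. Depth limits CREB3L1 in HCT116, at background, and ATF6B with siCARLo-3, at 15 to 37 counts.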
